A study of Mus musculus with 2 samples.

Results

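The 32 genes described here are astrocyte genes, that is, genes whose transcripts are abundant in or typical of astrocytes, given as a list of symbols. The rule sets no threshold on counts, but the list was drawn up with earlier results of these data known. All 32 had a row among the 32531 genes listed in each of 2 RNA-seq libraries, and all 32 passed a minimum of 10 counts in total. The libraries, IP1 and IP2, hold RNA bound to tagged ribosomes that was pulled out of homogenized cerebral cortex with antibodies to EGFP. The tissue came from untreated adult mice of the line Gdnf-EGFP/Rpl10a ES2243, in which the ribosomal protein Rpl10a fused to EGFP follows the regulatory sequences of Gdnf, and the series' own text names pericytes as the cells of interest. Both libraries belong to this single group, and the labels name no separate animals or pools behind them, so their spread may be technical. RNA of the whole cortex was not analysed here; values are read levels in purified RNA, not enrichments.

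Astrocytes are the glial cells whose end-feet cover the brain's blood vessels, where they face pericytes across the vascular basement membrane. They clear glutamate and potassium, convert glutamate to glutamine, move water through their end-feet and supply lipoproteins and matrix proteins to their neighbours. Proteins destined for a membrane or for secretion are made by ribosomes on the endoplasmic reticulum, whereas cytosolic and nuclear proteins are made mostly by free ribosomes. The 32 genes were accordingly divided into 9 with a membrane product, 6 with a secreted product and 17 with an intracellular product.

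Transcripts of the astrocyte genes were readily counted in the purified RNA. Levels are given as CPM, the counts of a gene scaled to the total counts in genes, which compare a gene between libraries but are not corrected for transcript length. In both libraries 28 of 32 members were at 10 CPM or more, a level reached by 28.3% of all listed genes. At 1 CPM the count was 31 members (41.3% of all genes) and at 100 CPM it was 12 (7.07%). The members together took 0.717% of the counts in IP1 and 0.884% in IP2, and their median level was 68.5 CPM in IP1 against 74.8 CPM in IP2. The members below 10 CPM in IP1 were Mlc1, Aldh1l1, Cbs and Mt3, and only Mt3 was also below it in IP2. The depth was 65200231 counts in genes in IP1 and 72732502 in IP2, and a row at 0 allows for up to 3 counts, equal to 0.046 and 0.041 CPM. Such limits, and the 95% intervals of ratios, cover counting error only.

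**Figure D1:**
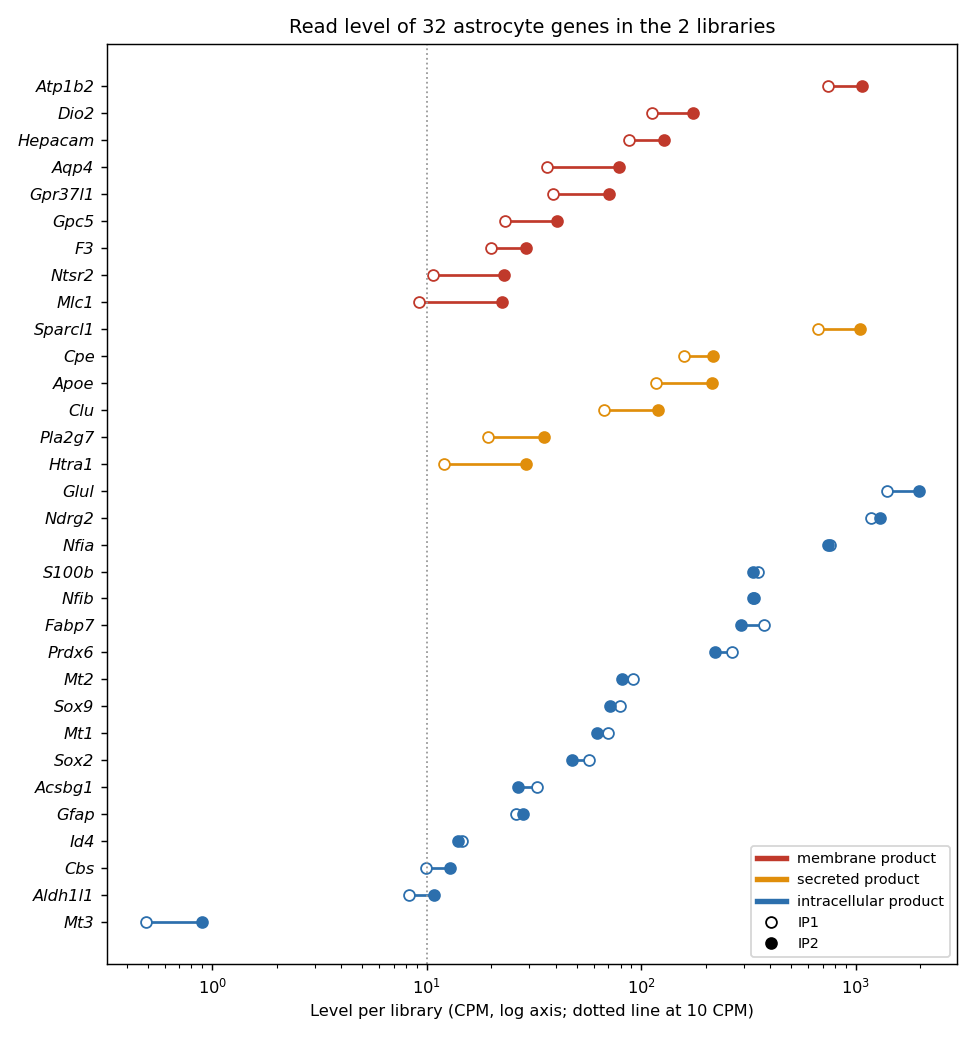
Level of each of the 32 astrocyte genes in CPM (log axis), with IP1 as open and IP2 as filled circles joined by a line, grouped by kind of product; the dotted line marks 10 CPM. In all 15 genes with a membrane or secreted product the IP2 point lies to the right of the IP1 point, whereas in 10 of the 17 genes with an intracellular product it lies to the left (Nfia, with nearly equal points, turns under TMM or DESeq2 scaling).

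Of the members, 10 were taken as most typical of astrocytes. They were Aqp4, Gfap, Aldh1l1, Mlc1, Hepacam, Sox9, Ntsr2, Acsbg1, Dio2 and F3. Counts in these genes cannot check the label, as markers of other cells were counted too. All 10 were counted in both libraries and 8 reached 10 CPM in both, with a summed level of 423 CPM in IP1 against 592 CPM in IP2. The 6 of them with a membrane or secreted product summed to 276 CPM in IP1 against 455 CPM in IP2. The 4 with an intracellular product summed to 147 and 137 CPM, with 2 higher and 2 lower in IP2. The other 22 members are also used by other cells of the cortex, among them oligodendrocytes and their precursors, neurons and vascular cells. Markers of such cells were present as well: 12 pan-neuronal markers summed to 16485 CPM in IP1 against 14514 CPM in IP2, mostly from Snap25, without which the other 11 summed to 3715 and 3719 CPM. A list of 12 oligodendrocyte precursor markers summed to 2890 and 3745 CPM. The 12 pericyte and mural markers summed to 7594 and 7059 CPM with Rgs5, and the other 11 turned the order, with 2754 and 2998 CPM. A set of 15 immediate early genes, induced by neuronal activity and by handling, summed to 1389 and 610 CPM. The part of these cells and states in the members' values was not tested. In RNA pooled from many cells, fewer cells of a type and less RNA per cell cannot be told apart.

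The members differed between the libraries according to the kind of protein they encode. Every one of the 15 genes with a membrane or secreted product was higher in IP2, with ratios of IP2 over IP1 from 1.36 to 2.44 and a median log2 ratio of 0.84. The 17 genes with an intracellular product had a median log2 ratio of -0.06, close to the -0.06 of all 17306 genes with 10 or more counts, and 7 of them were higher and 10 lower in IP2, of which Nfia turned under other scalings. Over all 32 members 22 were higher in IP2, against 44.7% of all genes with 10 or more counts and 46.7% of those averaging 10 CPM or above. A ratio of at least 2 was found for 4 members towards IP2 (against 7.15% of all genes with 10 or more counts) and for 0 towards IP1 (against 11.3%). All 4, Mlc1, Htra1, Aqp4 and Ntsr2, have a membrane or secreted product. Low counts scatter widely, and of the 9656 genes averaging 10 CPM or above 0.973% reached a ratio of 2 towards IP2 and 0.549% towards IP1. With 1 library on each side there is no test across replicates, and the ratio describes how 2 libraries of a single group differed.

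At a ratio of at least 1.5 the count was 11 of 15 genes with a membrane or secreted product, and 1 of 17 with an intracellular product, Mt3. That ratio was passed towards IP2 by 13.7% of genes with 10 or more counts and by 6.56% of genes averaging 10 CPM or above. Towards IP1 it was passed by 0 of the 32 members, against 18.1% and 4.42% of the same backgrounds. The classes overlapped in order. Of the 15 log2 ratios of the first class, taken with 0.5 counts added to each count, 7 were above those of all intracellular members. The highest intracellular member was Mt3 with its few counts. Without the added 0.5 counts Pla2g7 fell just below Mt3, with a ratio of 1.81 against 1.82. With Mt3 set aside, 14 lay above all other intracellular members, and the exception was Cpe, which lay below Glul. Counting error was small beside these differences, as only Nfib and Id4 had a 95% interval of the ratio that held 1.

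**Figure D2:**
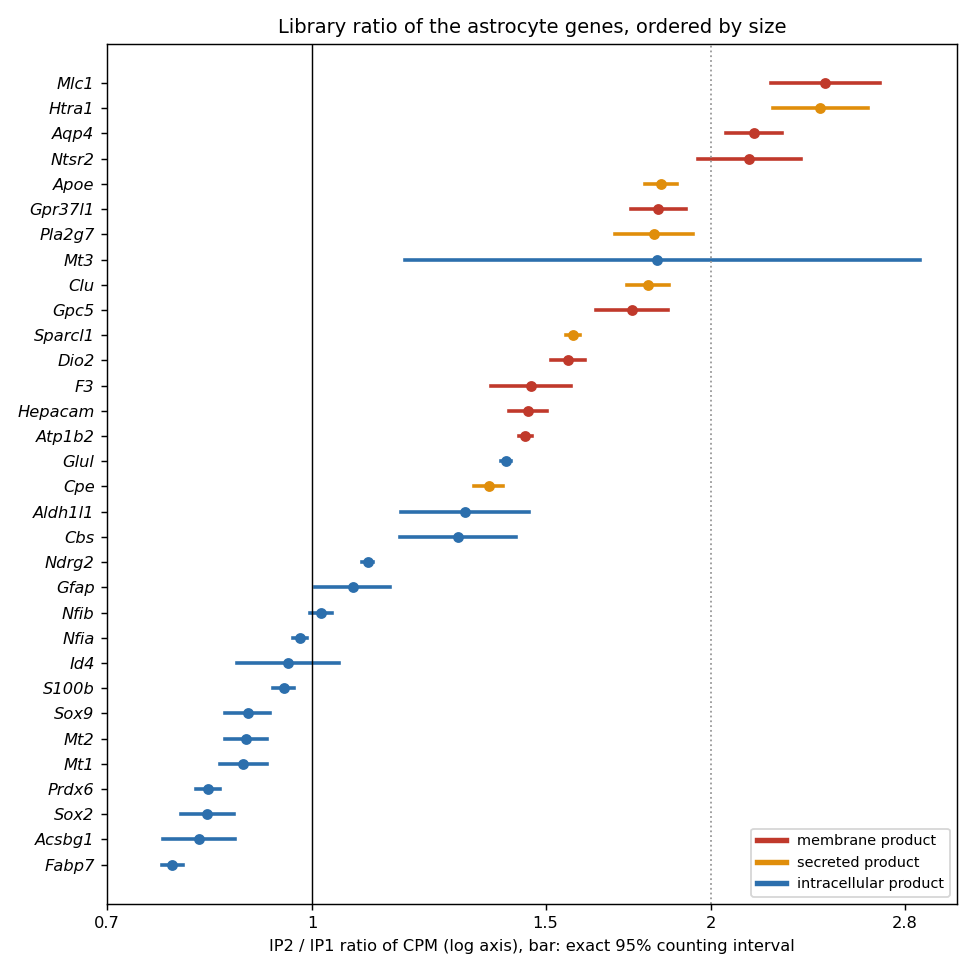
Ratio of IP2 over IP1 in CPM for each astrocyte gene (log axis), with the exact 95% counting interval as a bar. Genes are ordered by log2 ratio with 0.5 counts added to each count, which places Pla2g7 above Mt3. Lines mark ratios of 1 and 2. Membrane and secreted products lie in the upper part, from Mlc1 at 2.44 to Cpe at 1.36, with the intracellular Mt3 at 1.82 and Glul at 1.40 among them. Aldh1l1 at 1.30 and Cbs at 1.29 follow. The other intracellular members, transcription factors among them, gather around and below 1, down to Fabp7 at 0.784.

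Among the proteins of water, ion and junction balance, the water channel gene Aqp4 was at 36.5 CPM in IP1 against 78.6 CPM in IP2. Mlc1, whose membrane protein sits with the adhesion molecule GlialCAM at astrocyte junctions and is mutated in a leukoencephalopathy with cysts, was at 9.20 and 22.4 CPM. Its ratio of 2.44 (interval 2.22 to 2.68) was the highest of the 32. Hepacam, which encodes GlialCAM itself, was at 87.4 CPM in IP1 against 127 CPM in IP2, a ratio of 1.46, so that the genes of these 2 partners shared a direction but not a size of difference. Atp1b2, the beta subunit of the glial sodium pump also known as an adhesion molecule on glia, was at 738 and 1068 CPM. The genes of this group were thus all higher in IP2, with log2 ratios from 0.53 to 1.29.

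Receptors and other surface proteins gave the same picture. Ntsr2 (chromosome 12, 16653443 to 16660236, mm10), a receptor for neurotensin, was at 10.7 CPM in IP1 against 22.8 CPM in IP2, a ratio of 2.14 (interval 1.95 to 2.34). Gpr37l1, an orphan G protein-coupled receptor of glia, was at 38.6 and 70.5 CPM. Gpc5, a heparan sulfate proteoglycan anchored to the cell surface, was at 23.1 CPM in IP1 against 40.3 CPM in IP2. The tissue factor gene F3, which starts the extrinsic clotting cascade at the surface of perivascular cells, was at 19.9 and 29.1 CPM and had the lowest ratio of this group, 1.46. Dio2, the selenoenzyme that activates thyroid hormone and is held in the membrane of the endoplasmic reticulum, was at 112 CPM in IP1 against 175 CPM in IP2. Its ratio of 1.56 was close to those of the surface proteins.

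All 6 genes of secreted proteins were higher in IP2. Htra1 (chromosome 7, 130936203 to 130985658), a secreted serine protease that is mutated in a recessive small vessel disease, was at 12.02 CPM in IP1 against 29.1 CPM in IP2, a ratio of 2.42 (interval 2.23 to 2.63). The lipoprotein gene Apoe, whose product carries cholesterol between brain cells, was at 117 and 214 CPM. Clu, which encodes the extracellular chaperone clusterin, another carrier of lipids, was at 66.7 CPM in IP1 against 119 CPM in IP2. Those 2 apolipoprotein genes had almost the same ratio, 1.83 and 1.79. Pla2g7, a secreted phospholipase that inactivates platelet-activating factor, was at 19.4 and 35.1 CPM. Sparcl1, also known as hevin, a matricellular protein that promotes synapses, was at 665 CPM in IP1 against 1046 CPM in IP2. Cpe, a carboxypeptidase that trims peptide hormones in secretory granules and is also made by neurons, was at 158 and 215 CPM, and its ratio of 1.36 was the lowest of the 15 genes with a membrane or secreted product.

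Cytoskeletal and other cytosolic proteins differed little. Gfap, the intermediate filament gene of astrocytes, was at 26.2 CPM in IP1 against 28.1 CPM in IP2. Its mean of 27.1 ± 1.34 CPM (SD, n = 2) placed it at rank 6566 of the table. S100b, a calcium-binding protein of astrocytes and oligodendrocytes, was at 340 ± 11.9 CPM (SD, n = 2), and Ndrg2, a protein of the N-myc downstream-regulated family, at 1242 ± 84.4 CPM (SD, n = 2). All 3 had ratios between 0.952 and 1.10. Fabp7, the brain fatty acid-binding protein of glial precursors, went the other way, with 374 CPM in IP1 against 293 CPM in IP2. It was 1.28-fold higher in IP1, the largest difference in that direction among the members.

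Metabolic enzymes were mixed. Glul (chromosome 1, 153899929 to 153909723), the glutamine synthetase that takes up ammonia and glutamate, drew more reads than any other member, with 1404 CPM in IP1 against 1965 CPM in IP2. Its ratio of 1.40 (interval 1.39 to 1.41) was the highest of the intracellular members after Mt3. Aldh1l1, the folate enzyme often used to mark astrocytes, was at 8.30 and 10.8 CPM, and Cbs, which makes cystathionine from homocysteine and serine, at 9.97 and 12.8 CPM. These 3 were higher in IP2 by less than 1.5-fold. Acsbg1, an acyl-CoA synthetase, was lower there, with 32.6 CPM in IP1 against 26.7 CPM in IP2, as was the antioxidant enzyme gene Prdx6 with 264 and 220 CPM. Prdx6b, a close copy of Prdx6 with a row of its own, had 1 count in each library, and reads that fit both genes equally well would have been left out of either row.

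The transcription factor genes differed little between the libraries. Nfia was at 760 CPM in IP1 against 744 CPM in IP2, and Nfib at 332 and 337 CPM; both encode nuclear factor I proteins that drive the switch of neural precursors to glia and are also used by neurons. Id4, an inhibitor of basic helix-loop-helix factors, was at 14.6 and 14.0 CPM. The direction of Nfia was not settled, since its log2 ratio of -0.03 became 0.02 when the libraries were scaled by TMM or by DESeq2 size factors. Sox9, needed to make and keep astrocytes, was at 79.6 CPM in IP1 against 71.1 CPM in IP2, and Sox2, a factor of neural precursors and glia, at 57.1 and 47.6 CPM. All 5 had ratios within 1.5-fold, from 0.833 for Sox2 to 1.02 for Nfib. Sox2 and Nfia lie in regions that overlap another gene of the table, as do Glul, Ntsr2, Id4, Pla2g7 and Gpc5, so part of their reads may have been left unassigned or belong to the neighbour.

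The metallothioneins, small cysteine-rich proteins that bind zinc and copper, are encoded next to each other on chromosome 8. Mt1 was at 70.3 CPM in IP1 against 62.3 CPM in IP2, and Mt2 at 91.2 and 81.3 CPM. The 2 genes thus had nearly the same ratio, 0.887 (interval 0.851 to 0.924) and 0.891 (interval 0.860 to 0.924). Mt3, the brain form of the family, had only 32 counts in IP1 and 65 in IP2, or 0.491 and 0.894 CPM. It was the only member below 1 CPM, at rank 14467, and its ratio of 1.82 had a wide interval, 1.18 to 2.87. Transcription of Mt1 and Mt2 is known to respond to metals through metal response elements with the core letters TGCACNC or TGCGCNC. DNA at the starts of the 3 genes is shown as a description. A link of these letters to the levels or ratios of the genes was not tested. Capitals mark these letters on either strand, and overlapping matches would be joined. Sequences are from RefSeq (GRCm38.p6, plus strand), with the 250 bases before the transcript start for Mt2 (chr8:94172368-94172617) and Mt3 (chr8:94152357-94152606), and 30 bases for Mt1 (chr8:94179055-94179084), whose window lies largely within the annotated gene (94178883 to 94180327), so that this stretch precedes a transcript start inside the gene.
Mt1: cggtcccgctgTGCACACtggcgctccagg
Mt2: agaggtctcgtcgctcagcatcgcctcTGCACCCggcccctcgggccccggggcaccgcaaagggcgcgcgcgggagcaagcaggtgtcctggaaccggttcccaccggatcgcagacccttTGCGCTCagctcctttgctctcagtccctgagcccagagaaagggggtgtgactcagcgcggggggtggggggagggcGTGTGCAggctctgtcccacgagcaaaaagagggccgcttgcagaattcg
Mt3: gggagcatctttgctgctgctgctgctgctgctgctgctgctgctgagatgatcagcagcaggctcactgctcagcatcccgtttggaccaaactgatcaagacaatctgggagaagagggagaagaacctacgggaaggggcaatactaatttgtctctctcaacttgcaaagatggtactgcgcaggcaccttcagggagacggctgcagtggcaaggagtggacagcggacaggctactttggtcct
The window of Mt2 held 3 matches, that of Mt1 held 1 and that of Mt3 held 0. Of all 32851 such windows, 21.4% held at least 1 match and 1.26% held 3 or more. A window was found for 24 of the 32 members, and Dio2, Glul and Sox2 held a match besides Mt1 and Mt2. A match describes letters only, and no match says nothing of other parts of the gene.

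Among the ratios of all genes, those of the astrocyte membrane and secreted products lay in the upper part. Mlc1 stood above 94.8% of all genes with 10 or more counts, Htra1 above 94.7% and Aqp4 above 93.7%. Fabp7, at the other end of the members, stood above 27.3%. Members with a ratio of at least 1.5 spanned a wide range of levels, from Mlc1 at 15.8 ± 9.36 CPM to Sparcl1 at 856 ± 269.5 CPM (mean ± SD, n = 2), beside Mt3 at its few counts.

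**Figure D3:**
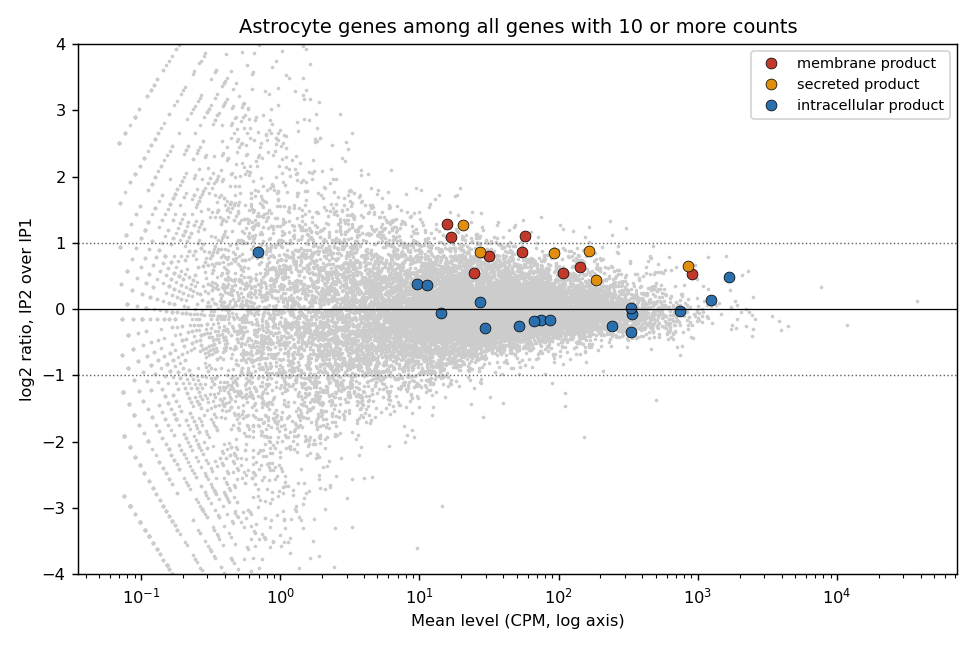
Mean level in CPM (log axis) against log2 ratio of IP2 over IP1 for all 17306 genes with 10 or more counts (grey), with the 32 astrocyte genes coloured by kind of product; 713 grey points lie beyond the axis limits of 4. Red and orange points (membrane and secreted) lie above 0 at every level, and most blue points (intracellular) lie along 0.

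Another list of 32 astrocyte genes, none of them members, was also drawn up and classed with earlier results known, so it is no independent support. In it, 21 of 23 genes with a membrane or secreted product were higher in IP2, with a median log2 ratio of 0.81, and 17 had a ratio of at least 1.5. The exceptions were Grin2c and Btbd17. Of the 9 with an intracellular product 4 were higher and 5 lower, with a median of -0.08. Slc1a2, the main glutamate transporter of astrocytes, was at 1158 CPM in IP1 against 2028 CPM in IP2, and its relative Slc1a3 at 99.4 and 212 CPM. The potassium channel gene Kcnj10 was at 130 and 234 CPM and the endothelin receptor gene Ednrb at 77.6 and 175 CPM. Slc6a11, a GABA transporter gene, and Mfge8, which encodes a secreted opsonin, also had ratios above 2, at 2.16 and 2.004. By contrast the glycolytic enzyme gene Aldoc was at 433 CPM in IP1 against 410 CPM in IP2, and Dtna, which encodes the cytoplasmic scaffold protein dystrobrevin alpha, at 199 and 172 CPM.

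Genes linked to reactive astrocytes, the state taken on after injury, were given by a list of 12, of which 6 reached 10 CPM in both libraries and 1, Lcn2, had no count. Of the 10 with 10 or more counts 8 were higher in IP2, with a median log2 ratio of 0.38. Vim, an intermediate filament gene, was at 116 CPM in IP1 against 126 CPM in IP2, and Cp, which encodes the ferroxidase ceruloplasmin, at 64.6 and 120 CPM.

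Lists of other cells, chosen and classed with the same knowledge, differed in how far they showed the division. In lists of oligodendrocyte precursor, oligodendrocyte, pan-neuronal and mural markers, 24 of 25 genes with a membrane or secreted product were higher in IP2, with a median log2 ratio of 0.56, the exception being Opalin. Of the 23 with an intracellular product 5 were higher and 18 lower, with a median of -0.21. Endothelial and microglial markers, most of them under 10 CPM, gave no clear answer. Of 21 genes with a membrane or secreted product and 10 or more counts, 12 were higher and 9 lower in IP2, with a median of 0.07. Of the 5 averaging 10 CPM or above, 4 were higher and 1 lower, with a median of 0.52. Only 2 genes of these lists had an intracellular product, too few for a comparison of the classes. Emcn, an endothelial sialomucin gene, was at 42.1 and 33.3 CPM, and Tek, the angiopoietin receptor gene, at 3.36 and 1.004 CPM. These 2 do not stand for their list, in which 7 of 11 genes with 10 or more counts were higher in IP2 and 4 lower. Over all 6 lists 36 of 46 genes with a membrane or secreted product and 10 or more counts were higher. In the 4 lists, Pdgfra, the growth factor receptor of oligodendrocyte precursors, was at 326 CPM in IP1 against 632 CPM in IP2, while the transcription factor gene Olig1 of the same cells was at 985 and 913 CPM. In the mural list Abcc9, a potassium channel subunit, was at 330 and 571 CPM, and Rgs5, a cytosolic regulator of G protein signalling, at 4841 and 4061 CPM. Families were also sorted by gene symbol alone, without the members. Among genes averaging 10 CPM or above, 278 of 354 in families with membrane or secreted products (such as solute carriers, collagens, laminins and integrins) were higher in IP2, with a median log2 ratio of 0.32. Of 650 in families with intracellular products (such as zinc finger proteins, proteasome subunits and Rab GTPases) 214 were higher, with a median of -0.11. The difference between the medians was 0.43 for these families and 0.90 for the astrocyte genes. Whether the astrocyte genes stood apart from the families was not tested. By family, the median for membrane or secreted products ran from 0.18 (Eph receptors) to 0.87 (laminins). For intracellular products it ran from -0.27 (proteasome subunits) to 0.06 (ubiquitin-specific proteases, 23 of 43 higher in IP2).

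**Figure D4:**
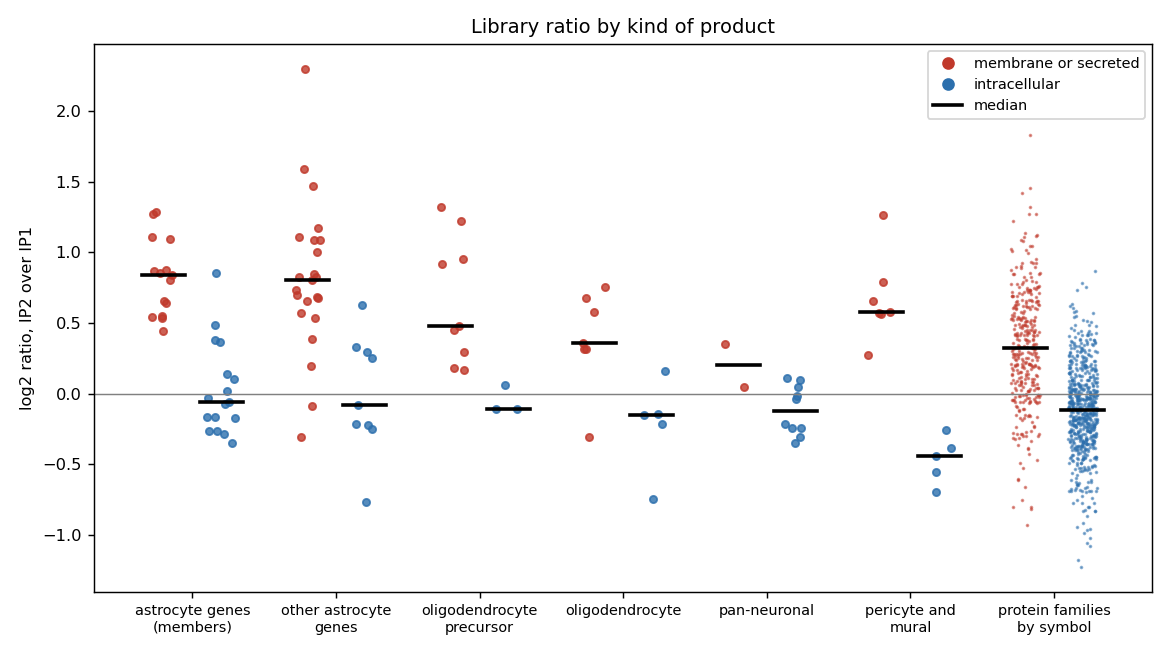
Log2 ratio of IP2 over IP1 for genes with a membrane or secreted product (red) and with an intracellular product (blue) in the 32 astrocyte genes, 5 other lists and the protein families sorted by symbol; each point is a gene and black bars are medians. The endothelial and microglial lists are not plotted. In each of the 7 sets shown the red median lies above the blue median, at 0.84 against -0.06 for the astrocyte genes. The pan-neuronal red median rests on 2 genes only, and the oligodendrocyte precursor blue median on 3.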

How the data were processed

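The deposited data are raw, unnormalized counts, 1 file for IP1 and 1 for IP2, with a row for each gene symbol. The submitters' processing notes name STAR 2.0.0e, HTSeq and the mm10 genome; annotation and strand mode: not given in the sources used here. Summary lines and the row unknown (1 read in IP1, 0 in IP2) were left out, which kept 58.1% and 57.7% of the listed reads. Reads with several alignments or matching more than 1 gene have no gene count.

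Counts were scaled to CPM on the total of gene counts. Ratios are IP2 over IP1. Log2 ratios, and the calls, percentiles and orders taken from them, use a prior of 0.5 counts. Ratios not on the log2 scale are given without the prior for single genes, as are their 95% intervals, which are exact binomial (Clopper-Pearson). Reads carry no molecular identifiers. A call was a ratio of at least 2 among genes with 10 or more counts in total. No p-value was computed, since the series has 1 group of 2 libraries. The libraries differed beyond counting error in 30 of 32 members and were not treated as copies. Product classes follow textbook knowledge of each protein, with Dio2 placed among membrane products. The members, lists and classes were chosen with earlier results of these data known. All members are named; of the other astrocyte genes, the 6 highest and 4 past the 2-fold ratio, taken by level, are named. Grin2c, Btbd17, Opalin, Lcn2, Vim, Cp, Pdgfra, Olig1, Abcc9, Rgs5, Snap25, Emcn and Tek were named after their values were seen, and the sorting of families by symbol, the classes within lists of other cells and the sums without 1 gene were added then too. Alternatives used edgeR 4.0.16 (TMM) and DESeq2 1.42.0 (size factors) in R 4.3.3; the rest used Python 3.11.15, pandas 2.3.3 and scipy 1.17.1. The ratio and interval were tested on simulated data.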

Additional observations from a re-analysis of the deposited data

How the results depend on the processing

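TMM and DESeq2 scaling moved all log2 ratios by 0.053 and 0.055. Such a common shift cannot change the difference of the 2 class medians, so scaling was no check of the division by kind of product. That difference was 0.90, and it was 0.89 with Dio2 and 0.87 with S100b placed in the other class. Chosen after seeing the data, the 10 defining markers alone gave a difference of 0.90, as did the members without them, whereas the families sorted by symbol gave 0.43, with 0.32 for membrane or secreted products. The count of members higher in IP2 by the ratio was 4 under either scaling and 12 at a ratio of 1.5. It was also 4 without a filter on counts and among genes averaging 10 CPM or above. Those 2 settings could not change it, as all members passed the filter and the 4 members averaged above 10 CPM. For the level, 31 members reached 1 CPM and 12 reached 100 CPM in both libraries. Without IP1 or IP2 the median level of the members was 74.8 or 68.5 CPM, and 31 or 28 members reached 10 CPM. The median level of genes with a membrane or secreted product was 38.6 CPM in IP1 alone and 78.6 CPM in IP2 alone. Leaving out a library leaves no ratio. Sorting all genes by hydrophobic stretches of their proteins was planned and not run, as protein sequences were not used here. No paired analysis was possible because the series has a single group. Levels of different genes were not compared per length, and depth limits only Mt3 among the members.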
